A study of Mus musculus with 5 samples.

Results

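The members described here are 39 genes that type I interferon is known to induce, called interferon-stimulated genes, chosen by their symbols from the 31053 genes of 5 single-cell RNA libraries of mouse kidney CD4 T cells. All 39 were found, and each is annotated as a protein-coding gene. The list was drawn up with earlier results of these data known. The libraries come from kidneys of 10-week-old mice after ischemia-reperfusion injury, in which the blood supply of the organ is stopped and then restored. Cells were sorted by flow cytometry as CD4 T cells, and the 3′ ends of their transcripts were counted with unique molecular identifiers (UMIs, 1 per captured molecule). There were 2 libraries titled wild type, whose genotype is given as Il1rl1fl/fl and which are called control here, and 3 labelled knockout, from Il1rl1fl/fl Foxp3YFP-Cre mice. By the genotypes given, all 5 carry the floxed Il1rl1 gene, which encodes ST2, a receptor that binds IL-33. Cre, made with a fluorescent protein from the Foxp3 gene and so in regulatory T cells (Tregs), is present in the knockout group alone, and loss of Il1rl1 cannot be told apart from the presence of that allele. Whether the libraries are separate animals is not stated in the labels, so the p-values measure the spread between these libraries, which may be technical.

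Type I interferons, the alpha and beta interferons, bind a receptor made of IFNAR1 and IFNAR2 on nearly every cell. The receptor's kinases JAK1 and TYK2 set off assembly of the complex ISGF3, which holds STAT2 and IRF9. ISGF3 binds a short DNA element in front of its target genes, and the products of those genes block viral RNA, viral protein synthesis or virus release, or amplify the response. Interferon gamma acts through another receptor, and many of its targets overlap with these genes.

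The element in front of the members is shown first because most members with a known window hold it, though not all. The interferon-stimulated response element is known by a pair of GAAA blocks with 2 bases of any kind between them, and this motif of 10 bases was searched on both strands, overlapping matches included, from 250 bases before to 50 bases after each gene's start (RefSeq, build GRCm38.p6). The RefSeq table held such a window for 31 members, and 19 of these 31 (61.3%) contained the motif in at least 1 window, against 1079 of 27025 gene symbols (3.99%) and 3.44% of 32851 windows in the whole table. Of 23 other interferon-stimulated genes with a window, 8 held it. The 8 members not matched were Ifi204, Ifi27l2a, Mx1, Oas2, Parp14, Rtp4, Usp18 and Zbp1. The stretches before the start of 6 genes are printed 5′ to 3′ along the gene's strand, and all of them hold the motif. Of these, 4 are of the IFIT family, chosen because it holds the 2 members whose levels varied most between libraries (Ifit1bl1 and Ifit3). Isg15 and Rsad2 are printed as members of the core list used below. Of 8 core genes with a window 4 held the motif, and no window of Ifit2, the other IFIT member, held it. Capitals mark the motif, in which TTTC blocks are GAAA blocks read on the other strand. The Ifit1 stretch, chr19:34640744-34640870 on the plus strand, lies between the annotated exons of Ifit1bl2 and Ifit1, and the Isg15 stretch holds 3 overlapping copies.
Ifit1: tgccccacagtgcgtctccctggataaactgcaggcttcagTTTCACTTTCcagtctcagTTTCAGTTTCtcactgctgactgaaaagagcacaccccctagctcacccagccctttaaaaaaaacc
Ifit3, chr19:34583279-34583528, plus strand: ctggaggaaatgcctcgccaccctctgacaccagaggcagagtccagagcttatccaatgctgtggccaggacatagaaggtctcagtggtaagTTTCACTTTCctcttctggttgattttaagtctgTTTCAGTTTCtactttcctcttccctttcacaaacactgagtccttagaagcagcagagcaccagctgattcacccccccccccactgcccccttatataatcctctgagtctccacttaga
Ifit3b, chr19:34607707-34607956, plus strand: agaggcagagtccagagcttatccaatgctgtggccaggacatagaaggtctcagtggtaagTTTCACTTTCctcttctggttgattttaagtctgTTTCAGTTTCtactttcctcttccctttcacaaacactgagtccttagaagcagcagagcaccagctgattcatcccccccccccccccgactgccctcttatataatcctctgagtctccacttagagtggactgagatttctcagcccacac
Ifit1bl1, chr19:34601969-34602218, minus strand: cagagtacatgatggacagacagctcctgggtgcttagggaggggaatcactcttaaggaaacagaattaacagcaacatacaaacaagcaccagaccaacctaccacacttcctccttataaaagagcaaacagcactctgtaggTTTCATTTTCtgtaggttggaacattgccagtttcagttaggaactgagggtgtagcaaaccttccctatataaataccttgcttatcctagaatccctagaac
Isg15, chr4:156200819-156201068, minus strand: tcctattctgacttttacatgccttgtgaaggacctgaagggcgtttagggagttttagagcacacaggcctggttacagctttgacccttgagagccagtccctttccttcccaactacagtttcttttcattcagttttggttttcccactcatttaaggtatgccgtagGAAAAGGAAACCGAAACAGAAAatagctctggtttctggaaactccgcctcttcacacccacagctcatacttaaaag
Rsad2, chr12:26456453-26456702, minus strand: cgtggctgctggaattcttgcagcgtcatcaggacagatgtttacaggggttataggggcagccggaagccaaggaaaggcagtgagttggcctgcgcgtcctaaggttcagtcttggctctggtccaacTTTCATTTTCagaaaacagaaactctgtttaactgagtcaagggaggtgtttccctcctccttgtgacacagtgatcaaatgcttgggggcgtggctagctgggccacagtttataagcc
The stretches of Ifit3 and Ifit3b were near copies: shifted by 32 bases and without gaps, 188 of 218 bases were identical (86.2%), and both motif copies of the one occur in the other. The transcripts of such neighbours can be alike too, so reads of Ifit3 and Ifit3b may have been assigned to the wrong copy or left out, and their separate levels are uncertain. A match is a description of the letters and not evidence that ISGF3 was bound there.

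The 5 files held 40778 cell barcodes and between 31104939 and 152275841 UMIs each, and 178 of 40599 distinct barcodes occurred in more than 1 library. Cells with at least 500 genes and under 10% mitochondrial UMIs were kept, and their median depth ran from 3786 to 13534 UMIs, highest in control 1. Cells were then placed in 3 gates by raw UMIs: the Foxp3 gate (at least 1 Foxp3 UMI, 315 to 863 cells per library), the Cd4 gate (no Foxp3 UMI and at least 1 Cd4 UMI, 3142 to 7417 cells) and a C1q gate meant for macrophages (at least 5 UMIs of C1qa, C1qb and C1qc together, 350 to 844 cells). Summed levels of 4 Treg markers were 1844 to 2731 CPM (UMIs per 1000000 UMIs of the summed cells of a gate and library) in the Foxp3 gate and 213 to 315 in the Cd4 gate. The C1q gate went against its name. Of its cells, 71.0% to 79.7% also lay in the Cd4 gate, 79.8% to 92.2% had a Cd3e UMI, and the summed level of 6 T cell markers was 3101 to 3455 CPM there against 3527 to 4203 in the Cd4 gate. The summed level of 9 macrophage markers was 6351 to 9456 CPM in the C1q gate and 1395 to 2042 CPM in the Cd4 gate. The Treg markers include Foxp3, the T cell markers include Cd4, and the macrophage markers include C1qa, C1qb and C1qc. These gaps therefore follow in part from the gate rules. The C1q gate is called by its rule from here on.

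Il1rl1, the targeted gene, was not lower in the Foxp3 gate of the libraries labelled knockout. Its level there was 74.3 and 54.5 CPM in the control libraries and 126, 52.96 and 50.4 in those labelled knockout, and the groups overlapped. In the Cd4 gate it was 9.09 and 9.24 against 58.2, 35.6 and 24.2, higher in all 3 libraries labelled knockout, with a log2 fold change of 2.09 ± 0.36 (SE, edgeR adjusted p = 0.8199). The summed Treg markers of the Cd4 gate were also higher there, at 246 and 213 against 303, 315 and 308 CPM. Whether they account for part of that difference was not tested. The deleted part of the gene is not given in the sources used here, and 3′ tags that lie outside it check nothing. Every direction below is therefore that of the labels. Foxp3 itself, the gene that defines Tregs, was at 263 and 332 CPM in the Foxp3 gate of the control libraries. In that of the knockout libraries it was at 229, 204 and 194 CPM, a difference of -0.52 ± 0.13 that did not pass (edgeR adjusted p = 0.478). Foxp3 UMIs chose these cells, so its level in them is set in part by the gate rule.

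Levels are given in CPM with TMM scaling, in the order control 1 and 2, then knockout 1, 2 and 3. Since a UMI counts 1 molecule at its 3′ end, they were not divided by gene length. In such sums fewer cells with a transcript and less RNA per cell cannot be told apart. The member with the highest mean level in the Cd4 gate was Ifi27l2a, which encodes a small membrane protein, at 466, 520.1, 281, 439.6 and 408 CPM. It was lowest in knockout 1 and both control values were above all 3 knockout values. Ifi203, a DNA sensor of the HIN-200 family, followed at 517, 344, 437, 401 and 374 CPM. Parp14, an ADP-ribosyltransferase, stood at 259.9, 259, 285, 307 and 249 CPM. Trim30a, a ubiquitin ligase of the TRIM family, stood at 292, 268, 259, 273 and 268 CPM. In these 3 genes the control and knockout values overlapped.

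Slfn1, a Schlafen gene tied to growth arrest of T cells, was at 257, 283, 248, 250.4 and 253 CPM, with both control values above the rest. Ifi47, an immunity-related GTPase, was at 216, 223, 230.1, 227 and 228 CPM, within a narrow range, and the HIN-200 gene Ifi209 was at 252, 234, 223, 201 and 206 CPM. Means of Slfn1, Ifi47 and Ifi209 were 258 ± 14.02, 225 ± 5.43 and 223 ± 20.9 CPM (SD, n = 5), so Ifi47 and Ifi209 do not differ beyond their spread. Ddx58, the cytosolic RNA sensor RIG-I, was at 160.1, 143, 157, 149.5 and 137 CPM. The Schlafen genes Slfn8 and Slfn5 were at 159.8, 131, 147, 164 and 117 CPM and at 168, 139.9, 156, 125 and 116 CPM. Their means of 149 ± 9.48, 144 ± 19.6 and 141 ± 21.7 CPM do not differ beyond their spread. The other 29 members had means from 4.33 CPM (Ifi44) to 124 CPM (Zbp1, a sensor of Z-form nucleic acids). The summed level of all 39 members was 4139 ± 266 CPM in the Cd4 gate, 4019 ± 333 CPM in the Foxp3 gate and 4304 ± 409 CPM in the C1q gate (SD, n = 5).

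**Figure D1:**
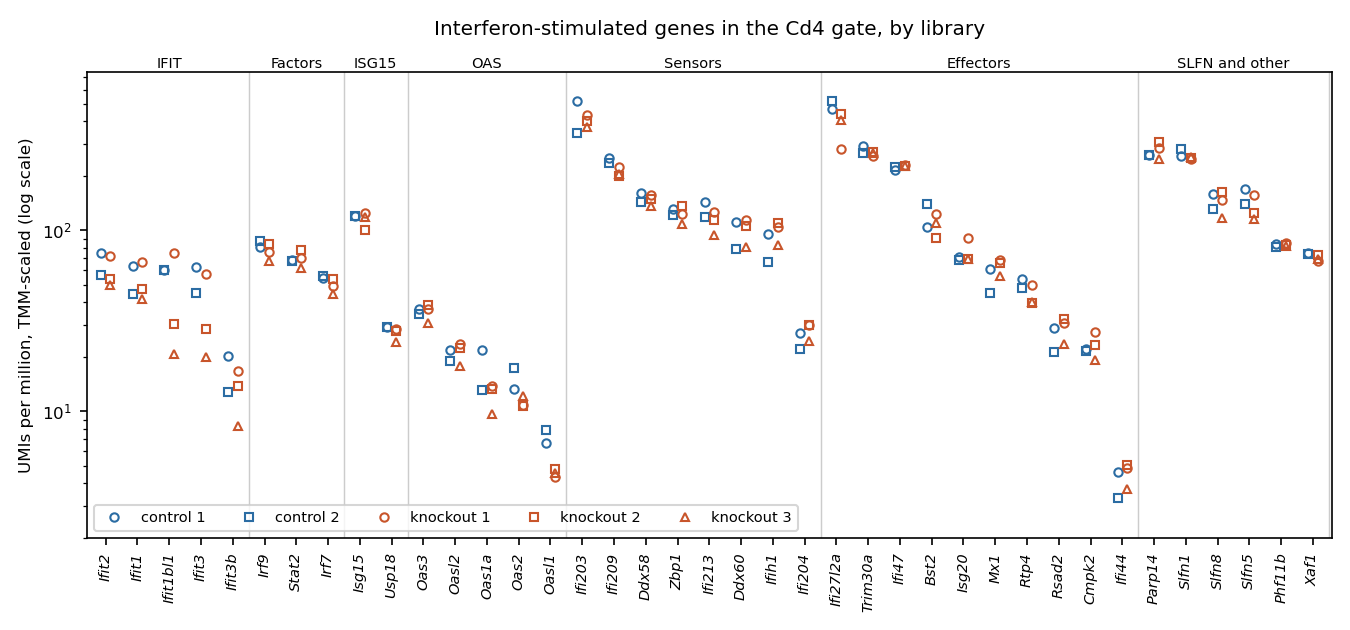
Level of each of the 39 genes in the Cd4 gate (vertical axis, CPM with TMM scaling, log scale), 1 point per library, genes grouped by role along the horizontal axis, control libraries in blue and knockout libraries in orange. Ifi27l2a and Ifi203 are the highest, Ifi44 is the lowest, and the points of Ifit1bl1 and Ifit3 lie farthest apart.

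The IFIT proteins bind viral RNA that lacks the host's cap. Their genes lie side by side on chromosome 19 (GENCODE M21), with Ifit2 at 34550694 to 34576419, Ifit3 at 34583531 to 34588731, Ifit1bl1 at 34592891 to 34601956, Ifit3b at 34607970 to 34613401 and Ifit1 at 34640871 to 34650009. In the Cd4 gate Ifit2 was at 75.02, 56.4, 71.98, 53.6 and 49.9 CPM and Ifit1 at 63.8, 44.3, 66.8, 47.3 and 41.6 CPM. In both genes control 1 and knockout 1 were the highest libraries. These also had the highest median depth, 13534 and 7546 UMIs per cell against 3786 to 4433 in the others. The part of depth in these levels was not tested. Ifit1bl1, a gene of the Ifit1 type, was at 60.6, 60.4, 75.4, 30.3 and 20.8 CPM, and Ifit3, an adaptor that binds IFIT1, was at 62.6, 45.3, 57.2, 28.4 and 20.03 CPM. Knockout 2 and 3 were the lowest libraries for both, and knockout 1 was among the higher ones. Ifit3b was at 20.1, 12.7, 16.8, 13.7 and 8.303 CPM, lowest in knockout 3. The coefficient of variation over the 5 libraries was 46.3% for Ifit1bl1 and 42.7% for Ifit3, the highest of the 39. It was 2.26% for Phf11b, the lowest. The median was 13.4% for the 39 members and 9.15% for 9650 genes of the same range of levels.

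The 3 factors that carry the signal had coefficients of variation of 8.50% to 9.92%. Irf9, the DNA-binding part of ISGF3, was at 80.9, 87.9, 75.5, 83.7 and 67.6 CPM. Stat2, its partner, was at 68.97, 67.9, 70.6, 78.1 and 61.6 CPM. Irf7, the factor that amplifies interferon production, was at 54.7, 55.6, 49.01, 53.7 and 44.6 CPM, and its control values lay above all knockout values by little. Of 21 interferon genes on the ligand list, Ifng alone had enough UMIs to be tested. No Ifna gene had a UMI in the Cd4 gate, and Ifnb1 had 1 UMI in all 5 libraries together.

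Most cells held few of these transcripts and a small share held many. A core of 10 members (Ifit1, Ifit2, Ifit3, Rsad2, Isg15, Usp18, Oasl1, Cmpk2, Mx1 and Ifi44) was counted in each cell after all cells had been thinned to 2000 UMIs, so that depth did not set the count. Shallower cells were left out (7 to 81 per library in the Foxp3 gate, 69 to 621 in the Cd4 gate and 10 to 41 in the C1q gate). In the Cd4 gate 71.4 to 76.3% of cells had no core UMI at that depth. Cells with at least 3 of the 10 core genes, called core-high, were 5.81%, 4.96%, 6.86%, 5.32% and 4.39% of the Cd4 gate. Each value carries a counting error, with exact Clopper-Pearson 95% intervals of 5.29 to 6.37% in control 1 and 3.72 to 5.15% in knockout 3. Knockout 1 was the highest library and knockout 3 the lowest, so control values lay between knockout values, with means of 5.39% ± 0.602 (SD, n = 2) and 5.52% ± 1.25 (SD, n = 3). Core-high is a range of a count and not a cell type: 102 to 342 cells per library had exactly 2 core genes and 53 to 149 had exactly 3. No cell type in these libraries is known to lack these genes, so the share that free RNA gives could not be read.

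In the Foxp3 gate the core-high share was 4.25%, 5.49%, 5.65%, 7.01% and 5.51%. The lowest knockout value, 5.51%, was just above the higher control value, 5.49%, and the 95% intervals of all 5 libraries overlapped (control 1 2.96 to 5.89%, knockout 2 5.34 to 9.01%). In the C1q gate it was 7.64%, 5.21%, 10.1%, 8.09% and 4.202%, highest in knockout 1 and lowest in knockout 3. Without thinning, the mean share over the libraries rose to 21.1% in the Foxp3 gate, 15.6% in the Cd4 gate and 35.7% in the C1q gate, an alternative chosen after the data were seen. Thinned core-high cells of the Cd4 gate had 8.99 to 10.7 core UMIs each, and the other cells had 0.285 to 0.337. The core-high cells held 61.3 to 72.8% of all core UMIs in the Cd4 gate, 61.1 to 65.6% in the Foxp3 gate and 39.7 to 67.1% in the C1q gate. The same thinned core counts chose these cells, so that gap and these shares follow in part from the choice. A single share per library has no test here, because a score over the members gets none.

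**Figure D2:**
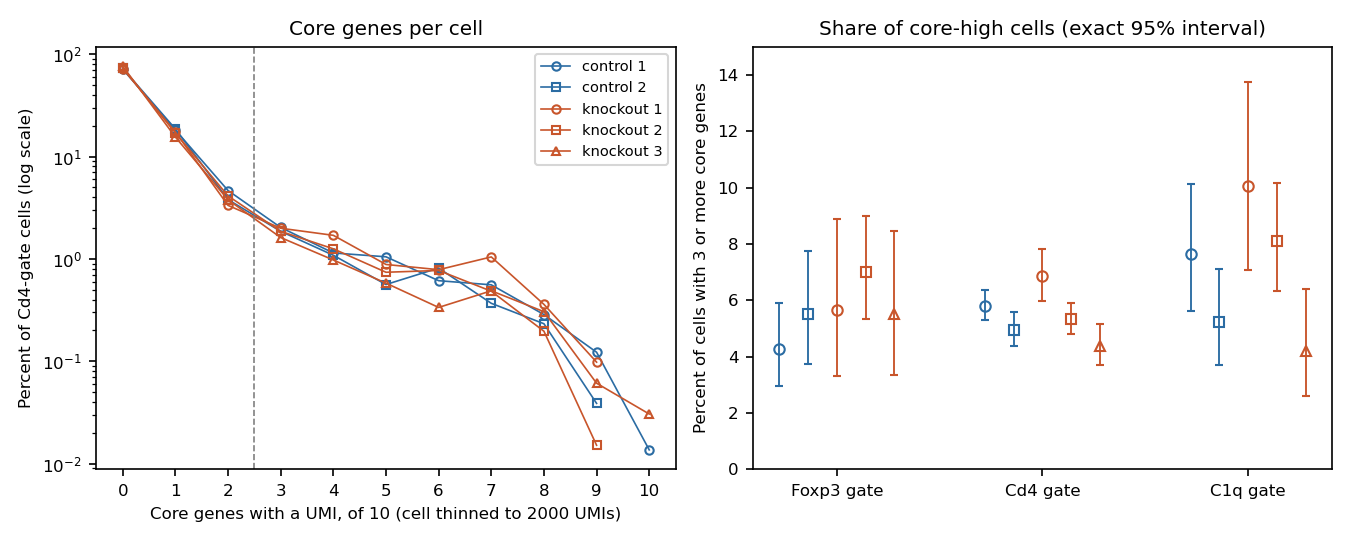
Left, percent of Cd4-gate cells (log scale) by the number of core genes with a UMI, 1 line per library, with the dashed line between 2 and 3 genes. Right, percent of cells with 3 or more core genes per library and gate, with exact 95% intervals for counting error, control libraries in blue and knockout libraries in orange, in which knockout 1 is the highest library of the Cd4 and C1q gates and knockout 3 the lowest.

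The members that did not choose these cells were also higher in them. Within the Cd4 gate, core-high cells were compared with all other cells of the same library, and 28 members were read (the 10 core genes and Ifit3b, which can share reads with Ifit3, were left out). All 28 passed edgeR's test with higher levels in core-high cells (background 17.8% of 12324 genes called, 11% higher). Each was higher in 5 of 5 libraries (background 13.2%), and no core-high value of a gene was as low as its highest value in the other cells. Their median log2 difference was 2.41, against -0.02 over all genes, and it ran from 1.34 (Irf9) to 3.78 (Ifi204). Among the signal factors, Stat2 was at 271, 266, 285, 291 and 231 CPM in core-high cells and 53.6, 56.2, 52.0, 62.1 and 51.3 CPM in the others, a log2 difference of 2.30 ± 0.04 (SE, edgeR adjusted p = 2.41e-18). Irf7 was at 273, 274, 240.0, 232 and 256 CPM against 39.04, 42.7, 33.2, 41.2 and 33.8 CPM (2.74 ± 0.05). Irf9, with the smallest difference of all, was at 178, 197, 169, 189.7 and 157 CPM against 71.2, 80.2, 64.7, 74.1 and 60.9 CPM (1.34 ± 0.04).

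The 8 sensors of RNA and DNA had a median of 2.41. Ddx58 was at 497, 442, 485, 450.1 and 463 CPM in core-high cells and 132, 124, 125, 125 and 117 CPM in the others (1.90 ± 0.04). Ddx60, a helicase that assists RIG-I, was at 569.9, 416, 528, 475 and 522 CPM against 78.7, 59.98, 79.3, 78.05 and 57.7 CPM (2.81 ± 0.05). Zbp1 was at 546, 551, 476, 499 and 455 CPM against 100.1, 96.2, 91.4, 110.3 and 88.3 CPM (2.38 ± 0.04). The levels of these 3 genes were several times higher in the core-high cells, and the other cells include those with 1 or 2 core genes. Of the HIN-200 family, Ifi209 was at 949, 943, 955, 767 and 894 CPM against 198, 193, 160.1, 159.9 and 166 CPM (2.36 ± 0.04), and Ifi213 was at 605, 462, 546, 445 and 431 CPM against 108, 97.3, 90.6, 88.3 and 74.97 CPM (2.44 ± 0.05). The other 3 sensors were Ifih1, which encodes MDA5 (2.95), Ifi203 (1.68) and Ifi204 (3.78).

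The 4 oligoadenylate synthetase genes read here, whose family makes the messenger that activates RNase L, differed by a median of 3.04 and from 2.84 (Oas1a) to 3.62 (Oasl2). The 6 effectors outside the core had a median of 2.43, between 1.40 for Ifi27l2a, the most abundant member, and 2.90 for the RNA exonuclease Isg20. Trim30a was at 1161, 1095, 1018, 1022 and 1154 CPM against 227, 219, 192, 215 and 217 CPM (2.35 ± 0.03). Bst2, called tetherin because it holds budding virus at the membrane, differed by 2.51. Ifit1bl1, the IFIT gene outside the core, was at 344, 399.6, 481, 159 and 161 CPM in core-high cells and 40.8, 41.8, 43.6, 21.9 and 13.7 CPM in the others (3.204 ± 0.07), and knockout 2 and 3 were its lowest libraries in both.

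The Schlafen genes, Xaf1, Parp14 and Phf11b had a median of 2.32. Slfn5 was at 1209, 1058, 1123, 876 and 1002 CPM in core-high cells and 98.4, 89.9, 81.7, 77.3 and 72.1 CPM in the others (3.64 ± 0.04, SE, edgeR adjusted p = 3.88e-21), the smallest p of the 28. Parp14 was at 927, 903, 996, 975 and 946 CPM against 208, 218, 220.2, 253 and 207 CPM (2.10 ± 0.04). Phf11b was at 357, 329, 344, 316 and 329 CPM against 63.6, 66.5, 63.2, 66.1 and 67.4 CPM (2.37 ± 0.04). Slfn1 differed by less, 1.84. Those of the 28 whose window held the printed motif (14 genes) had a median of 2.47, and those whose window did not (8 genes) had a median of 2.35. All 28 passed with higher levels under each of the 13 alternative settings run. Markers of other cells moved with this contrast: the summed level of 9 macrophage markers was 1503 to 2538 CPM in core-high cells and 1389 to 2064 CPM in the others, higher in 5 of 5 libraries, and so was that of 4 monocyte markers (359 to 526 against 285 to 454). Within libraries the macrophage gap was widest in knockout 2 (2538 against 1757 CPM) and narrowest in control 1 (1503 against 1389 CPM). Among cells without a C1q UMI the median difference of the 28 members was 2.63.

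**Figure D3:**
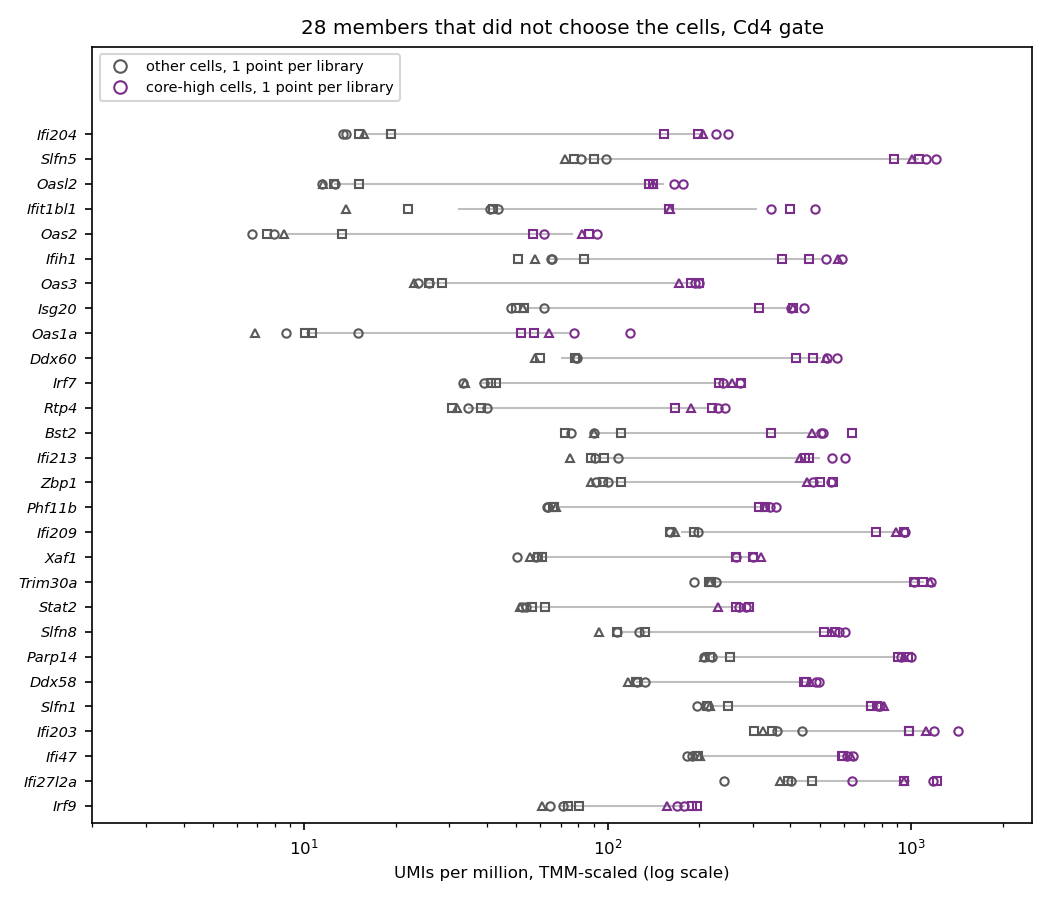
Level of the 28 members outside the core list in core-high cells (purple) and in all other cells (grey) of the Cd4 gate (horizontal axis, CPM with TMM scaling, log scale), 1 point per library, with a line between the means. The purple points lie above the grey points of the same gene for all 28.

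Other genes of the pathway moved with the core in part. Of 28 further interferon-stimulated genes tested, 27 passed as higher in core-high cells (background 11%), with a median of 1.91. Among them were Eif2ak2, the kinase PKR (2.54), Herc6, a ligase that attaches ISG15 (2.70), Rnf213 (2.76), Trim30d (2.46), Ifi206 (2.29) and Parp9 (2.23). Oas1g alone did not pass (1.23, edgeR adjusted p = 0.0604). Of 9 receptor and kinase genes tested, 4 passed as higher and 2 as lower (background 17.8% in either direction). Not every higher one is reported here, so the values given do not bound that list. The kinase gene Jak2 differed by 0.71, and the receptor genes Ifnar1 and Ifnar2 differed by 0.17 and 0.15. The interferon gamma receptor genes Ifngr1 and Ifngr2 differed by -0.17 and -0.29. Of 6 brakes on the pathway Socs1, an inhibitor of JAK kinases, alone passed, at 212 ± 52.3 CPM against 64.5 ± 18.2 CPM (SD, n = 5, 1.72 ± 0.06).

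Of 14 tested genes that sense nucleic acid or induce interferon, 12 passed as higher (background 11%). The 6 with the smallest p were Adar (1.25), Irf2 (0.79), Irf1 (0.85), Tbk1 (0.72), Mb21d1, which encodes cGAS (0.94), and Tlr7 (1.30). Ifng passed too, at 52.8, 154, 58.1, 108 and 64.97 CPM in core-high cells and 27.8, 38.9, 38.4, 105 and 41.1 CPM in the others (0.83 ± 0.17, edgeR adjusted p = 0.00159). It was higher in core-high cells in 5 of 5 libraries, its values overlapped between the 2 sets of cells, and the gap was smallest in knockout 2.

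Between the Foxp3 and Cd4 gates of the same libraries, the members differed in both directions and by little. Of the 39, 4 passed as higher (background 11.9%) and 9 as lower (background 9.53%) in the Foxp3 gate, 13 in all (background 21.4% of 12994 genes called), with a median log2 difference of -0.10 against -0.02 over all genes. Ifi27l2a was at 692, 562, 379, 639 and 499.8 CPM in the Foxp3 gate, higher than in the Cd4 gate in 5 of 5 libraries (0.37 ± 0.06, SE, edgeR adjusted p = 0.00205). Slfn1 was at 162, 190.3, 162, 210.4 and 209 CPM, lower in 5 of 5 libraries (-0.50 ± 0.06, adjusted p = 4.29e-04 by edgeR). These had the smallest p of each direction.

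Of the effectors and Schlafen genes, Ifi47 was lower in the Foxp3 gate, at 169, 179.7, 188, 210.5 and 198 CPM (-0.27 ± 0.04). Phf11b was higher, at 91.6, 86.1, 97.04, 99.1 and 91.9 CPM against 83.9, 80.9, 85.5, 82.8 and 81.4 CPM (0.15 ± 0.04). The sensors that passed were lower in the Foxp3 gate. Ifi203 was at 461, 284, 362, 369 and 362 CPM (-0.19 ± 0.04), Ddx58 at 122, 117, 127, 152 and 123 CPM (-0.25 ± 0.06), lower in 4 of 5 libraries, and Ifih1 at 79.2, 57.6, 80.02, 109 and 76.2 CPM against 95.7, 67.2, 104, 109 and 83.1 CPM (-0.22 ± 0.05). In Ifih1 the ranges of the 2 gates overlapped, and the level was lower in the Foxp3 gate of 5 of 5 libraries. Synthetase genes went both ways. Oas3 was at 24.2, 22.6, 28.6, 35.7 and 26.1 CPM against 36.9, 34.3, 36.9, 38.8 and 30.7 CPM (-0.41 ± 0.08), lower in 5 of 5 libraries, and Oas1a at 28.3, 13.6, 17.97, 24.7 and 19.6 CPM against 21.8, 13.1, 13.9, 13.3 and 9.68 CPM (0.52 ± 0.12), higher in 5 of 5.

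Ifit3b was at 10.0, 7.73, 14.0, 12.6 and 7.84 CPM in the Foxp3 gate, below its Cd4-gate level in each library (-0.52 ± 0.14). Ifit1bl1 (-0.41) and Isg15 (-0.22) passed as lower and Rsad2 (0.22) as higher at adjusted p of 0.0342, 0.0384 and 0.0292 by edgeR. Ifit1bl1 was higher in the Foxp3 gate of knockout 2 (33.2 against 30.3 CPM) and knockout 3 (21.3 against 20.8 CPM). Isg15 was higher in that of knockout 2 (109 against 99.95 CPM), and both genes were lower in the other libraries. The number of members called was 8 without control 1 (background 15.4%) and 7 without knockout 1 (background 15.7%), a share of the 39 near the background in both.

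Macrophage markers were also higher in the Foxp3 gate, at 1812 to 3110 CPM against 1395 to 2042 CPM. Among cells of both gates without a C1q UMI, Ifi27l2a differed by 0.51 and Slfn1 by -0.53, and Rsad2 turned to -0.12. Slfn1, Ifi27l2a and Oas3 alone passed under all 13 alternatives, and the other 10 lost the test under at least 1 of them. Of the pathway lists, Ifng was lower in the Foxp3 gate (-0.998 on the log2 scale). The receptor genes Ifngr2 (0.56), Ifnar1 (0.21) and Ifngr1 (0.27) passed as higher and Ifnar2 (-0.15) as lower, of 9 receptors and kinases. The brakes Socs1 (0.22) and Socs3 (0.21) passed as higher, and the phosphatases Ptpn11 (-0.53) and Ptpn6 (-0.19) as lower. Of 15 sensing and induction genes 4 passed as higher, Irf5 (0.60), Irf8 (0.62), Tlr7 (0.72) and Tmem173, which encodes STING (0.15). Of 28 further interferon-stimulated genes 2 passed as higher and 6 as lower, Ifi208 by the most (-1.01). Over all genes of this comparison 11.9% passed as higher and 9.53% as lower.

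The C1q gate differed from the Cd4 gate in more members. Of the 39, 16 passed as higher (background 22.2%) and 9 as lower (background 19.7%), together 25 (background 41.9% of 12885 genes called), with a median of 0.04 against -0.01 over all genes. Ifi204, a HIN-200 DNA sensor, was at 70.97, 61.8, 71.7, 70.5 and 54.9 CPM in the C1q gate and 27.01, 22.1, 30.02, 30.2 and 24.5 CPM in the Cd4 gate, higher in 5 of 5 libraries and without overlap (1.31 ± 0.05, SE, edgeR adjusted p = 7.08e-09). The synthetase genes Oas2, Oasl2 and Oas1a followed. Oas2 was at 26.9, 38.4, 29.0, 26.03 and 27.2 CPM against 13.3, 17.3, 10.8, 10.8 and 12.1 CPM (1.19 ± 0.06). Oasl2 was at 39.6, 39.7, 38.7, 41.2 and 34.2 CPM (0.89 ± 0.05), and Oas1a at 34.5, 21.8, 23.3, 23.7 and 16.5 CPM (0.74 ± 0.05). Oas2 and Oasl2 did not overlap between the gates, while Oas1a did.

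Bst2 was at 133, 216, 176, 138 and 150.1 CPM in the C1q gate against 105, 139, 123, 90.4 and 110.1 CPM in the Cd4 gate (0.51 ± 0.04), and Ifi27l2a at 608, 661, 396, 600.1 and 496 CPM (0.39 ± 0.03). Both were higher in every library. The abundant members Ifi47, Slfn1 and Ifi203 were lower in 5 of 5 libraries, with Ifi47 at 186, 178, 190.2, 195 and 178 CPM (-0.28 ± 0.03), Slfn1 at 216, 221, 205, 221 and 209.7 CPM (-0.27 ± 0.03) and Ifi203 at 469, 279, 371, 358 and 319 CPM (-0.21 ± 0.03). Phf11b was higher in 5 of 5 libraries, at 109, 100.5, 97.9, 98.1 and 87.9 CPM (0.26 ± 0.04). The remaining 15 called members lay between -0.31 (Ifit1bl1) and 0.73 (Oasl1). Most cells of the C1q gate are also in the Cd4 gate, and they enter both sides of this comparison. With C1q cells restricted to the 48 to 152 per library without a Cd3e UMI, and Cd4 cells to those without a C1q UMI, 17 members passed (background 23.5% of 11566 genes), 11 higher (background 13.1%) and 6 lower (background 10.4%). Ifi204 then differed by 2.87, Oas2 by 1.90, Oasl2 by 1.84, Bst2 by 1.23 and Slfn1 by -0.83, each more than 1.5 times the value above. Of the 16 higher members, Rtp4, Oasl1, Slfn5, Xaf1, Irf9 and Trim30a did not pass there, and of the 9 lower ones Ifi209, Zbp1 and Ifit1 did not. Ifngr2 (1.33), Irf8 (1.04), Tlr7 (1.72), Ifitm3 (1.19) and Oas1g (2.33) were the pathway genes with the smallest p of their lists among those higher in the C1q gate, and 5 plasmacytoid dendritic cell markers summed to 76.3 to 139 CPM there against 41.9 to 67.8 CPM in the Cd4 gate. That sum (Siglech, Ccr9, Tcf4, Ly6d and Klk1) does not show that such cells were present, and any part of them in the members' values was not tested.

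The study's own contrast asks what changes when Il1rl1 is deleted in Foxp3-expressing cells. No member passed edgeR's test between the libraries labelled knockout and the control libraries in the Foxp3, Cd4 or C1q gate (background 0% of 11519, 13959 and 12005 genes in each). DESeq2 called 51, 57 and 21 genes in the 3 gates (background 0.443%, 0.408% and 0.175%) and none of the 39. At an unadjusted p under 0.05 edgeR gave 2, 3 and 1 members, against a background of 6.53%, 4.91% and 3.61% of genes. With no filter on low counts edgeR called 1 member, Mx1 in the Foxp3 gate (adjusted p = 0.0259, background 2.32% of 19481 genes). The 3 gates share libraries, and the C1q gate shares cells with the others. On simulated data edgeR recovered 30%, 10% and 12% of genes changed 1.5-fold in these gates, so differences of that size can be missed.

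In the Foxp3 gate more members lay above 0 than below it. Log2 differences were above 0 for 26 of 39 (background 49.8%), with a median of 0.11 against -0.001 over all genes, and 10 members did not overlap between the groups (background 20.8%), 9 of them higher (background 12%) and 1 lower (background 8.84%). Mx1, named because it had the smallest p and after its values were seen, is a GTPase that traps viral nucleocapsids. It was at 46.5 and 33.99 CPM in the control libraries and 46.3, 70.1 and 55.2 CPM in those labelled knockout, with knockout 1 just below control 1 (0.48 ± 0.20, SE, edgeR adjusted p = 0.743). Oas3 was at 24.2 and 22.6 CPM against 28.6, 35.7 and 26.1 CPM (0.36 ± 0.17, adjusted p = 0.8103 by edgeR). The Oas3 groups did not overlap, and its difference turned to -0.19 when cells were thinned to 2000 UMIs before gating.

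Ifi204 was at 27.5 and 15.9 CPM against 28.9, 34.8 and 28.01 CPM (0.45 ± 0.23), and Cmpk2, a nucleotide kinase next to Rsad2, at 20.3 and 16.1 CPM against 20.8, 28.1 and 22.1 CPM (0.36 ± 0.19). Ifi47 was at 169 and 179.7 CPM against 188, 210.5 and 198 CPM (0.18 ± 0.10), and Oasl2 at 16.7 and 17.7 CPM against 18.5, 25.1 and 20.7 CPM (0.32 ± 0.18). Knockout 2 was the highest library for Mx1 and for each of these but Ifi209. That gene was the 1 lower without overlap, at 268 and 251 CPM against 228, 224 and 226 CPM (-0.21 ± 0.09, edgeR adjusted p = 0.759). Without knockout 2 the median over the members was -0.008. It was 0.03 in the gate without C1q cells and 0.01 without the 5% of cells with the most UMIs. Other values moved with these: 7.43% and 11.8% of Foxp3-gate cells also lay in the C1q gate in the control libraries, and 14.0%, 16.8% and 18.3% in those labelled knockout. The summed macrophage markers of the gate were at 1812 and 2212 CPM against 2689.6, 2851 and 3110 CPM. Ifng was at 12.1 and 15.5 CPM against 16.1, 84.4 and 26.6 CPM, highest in knockout 2 (1.69 ± 0.63, edgeR adjusted p = 0.698). The part of these in the members' values was not tested beyond the gate without C1q cells.

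In the Cd4 gate fewer members lay above 0 than below it, with 12 of 39 above 0 (background 50.4%), a median of -0.09 against 0.001 over all genes and 9 members without overlap (background 17.3%), 8 of them lower (background 7.9%) and 1 higher (background 9.41%). Oasl1, a synthetase-like inhibitor of Irf7 translation, was at 6.67 and 7.89 CPM in the control libraries and 4.32, 4.81 and 4.57 CPM in those labelled knockout (-0.69 ± 0.17, SE, edgeR adjusted p = 0.962). Oas2 was at 13.3 and 17.3 CPM against 10.8, 10.8 and 12.1 CPM (-0.46 ± 0.16). In both, the 3 knockout values lay close together below the controls. Ifi209 (-0.23), Ifi27l2a (-0.41), Irf7 (-0.19) and Slfn1 (-0.13), whose levels are given above, were also lower without overlap. No adjusted p of a member was under 0.962 by edgeR in this gate. Without control 1, the deepest library, the median over the members was 0.003. The summed Treg markers of this gate, given above, were higher in all 3 knockout libraries, and their part in the members' values was not tested.

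In the C1q gate 13 of 39 were above 0 (background 51.8%), the median was -0.08 against 0.006 over all genes, and 5 members did not overlap (background 16.1%), all of them lower (background 8.2%) and none higher (background 7.94%). Rtp4, a chaperone that binds viral RNA, was at 71.1 and 56.3 CPM against 55.3, 46.8 and 49.4 CPM (-0.34 ± 0.14, SE). Ifi209 was at 242 and 202 CPM against 194, 193 and 173 CPM (-0.25 ± 0.12), and Ifi27l2a at 608 and 661 CPM against 396, 600.1 and 496 CPM (-0.35 ± 0.18). The lowest control value was close to the highest knockout value in each of these. Phf11b was at 109 and 100.5 CPM against 97.9, 98.1 and 87.9 CPM (-0.15 ± 0.10), and Xaf1, a factor tied to cell death, at 82.6 and 80.5 CPM against 74.2, 77.9 and 70.3 CPM (-0.13 ± 0.10). Without control 1 the median was 0.004, and without knockout 3 it was 0.02. On the pathway lists no ligand, receptor, kinase, brake, inducer or further interferon-stimulated gene passed edgeR's test in a gate.

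**Figure D4:**
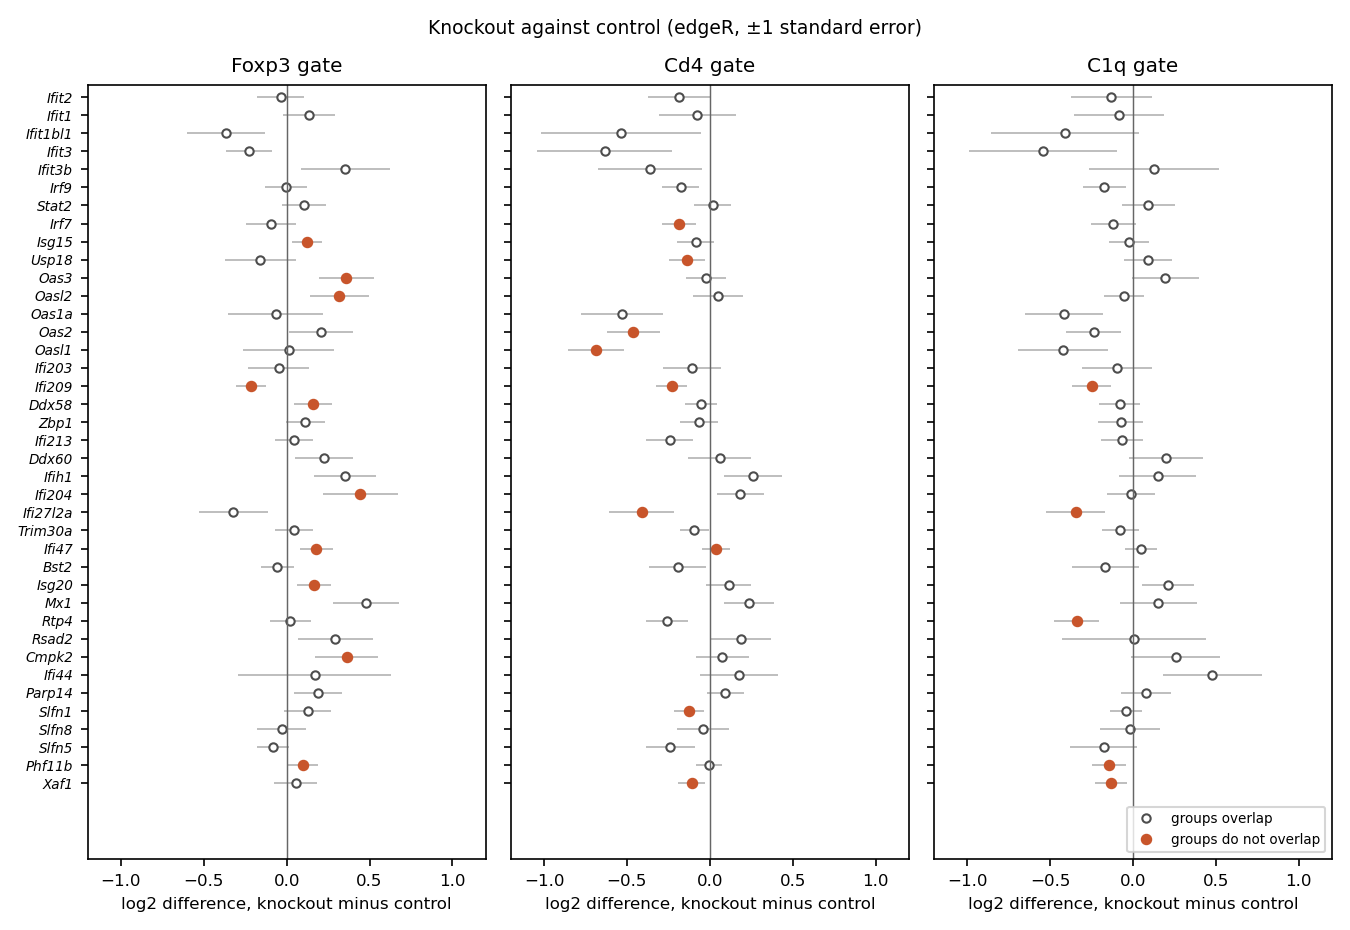
Log2 difference between knockout and control libraries for each member (horizontal axis, edgeR, bars are ±1 standard error) in the 3 gates, filled points where the groups' levels do not overlap. Filled points lie mostly right of 0 in the Foxp3 gate and left of 0 in the other gates, and no member passed the test.

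The difference between the knockout effects in the Foxp3 and Cd4 gates was tested itself, with the library as a term. It was above 0 for 37 of 39 members (background 47.2%), with a median of 0.17 against -0.01 over all genes. No member passed edgeR's test (background 0.0502% of 13949 genes), 10 had an unadjusted p under 0.05 (background 6.59%), and DESeq2 called none (background 0.151%). The members were higher in the same core-high cells, so these 39 values are not independent of one another. Ifit3b had the smallest p, with a difference of 0.74 ± 0.17 (SE, edgeR adjusted p = 0.254). It had 28 to 181 UMIs per library in the Foxp3 gate, and its level apart from Ifit3 is uncertain. Its level was 10.0 and 7.73 CPM in the Foxp3 gate of the control libraries and 14.0, 12.6 and 7.84 CPM in those labelled knockout, against 20.1 and 12.7 CPM and 16.8, 13.7 and 8.303 CPM in the Cd4 gate.

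Oas2, at 11.7 and 16.1 CPM and 16.5, 15.1 and 15.97 CPM in the control and knockout Foxp3 gates, differed by 0.65 ± 0.15 (edgeR adjusted p = 0.262). Oas3, whose levels are given above, differed by 0.37 ± 0.12 (adjusted p = 0.540 by edgeR). All 5 synthetase genes were above 0, with a median of 0.48. The Oas3 difference turned to -0.12 after thinning. Without knockout 1 all 39 members were above 0 (background 49.3%), the median was 0.295 and 1 member passed (background 0.232%). Without knockout 2 the median was 0.09, with 32 members above 0 (background 49%). With no filter on low counts 3 members passed (background 1.29%), among them Ifit3b and Oas2. The median was 0.17 in the gates without C1q cells.

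The IFIT genes did not keep the same proportions in all libraries, a comparison chosen after their values were seen and given with no test. Per 100 Ifit1 UMIs of the Cd4 gate, Ifit3 had 98.2, 102, 85.6, 60.05 and 48.1 UMIs. Ifit1bl1 had 95.03, 136, 113, 64.1 and 50. Knockout 2 and 3 were the lowest libraries for both, while knockout 1 was near the controls. Ifit2 had 118, 128, 108, 113 and 119.7 per 100, and Ifit3b had 31.6, 28.7, 25.1, 29.1 and 19.9. Ifit2 kept to a narrow range, and Ifit3b was lowest in knockout 3. The UMIs behind these ratios in the Cd4 gate ran from 938 to 7724 for Ifit1 and from 451 to 7582 for Ifit3.

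The pattern over the libraries was alike in the C1q gate, which shares cells with the Cd4 gate, where Ifit3 had 119, 114, 115, 74.5 and 55.02 UMIs per 100 of Ifit1 and Ifit1bl1 had 81.1, 127, 114, 57.1 and 49.8. In the Foxp3 gate Ifit3 had 87.96, 91.4, 62.3, 70.8 and 77.5 and Ifit1bl1 had 85.1, 116, 82.6, 65.6 and 53.5, on 142 to 864 Ifit1 UMIs. All 3 knockout values lay below both controls, but Ifit3 was lowest in knockout 1, unlike in the Cd4 gate. In knockout 1, 181 of the 276 Ifit1 UMIs of the Foxp3 gate came from 17 core-high cells. Among core-high cells of the Cd4 gate Ifit3 had 107, 110.0, 90.8, 61.2 and 52.3 and Ifit1bl1 had 48.6, 68.6, 67.2, 28.8 and 25.6, so knockout 2 and 3 were lowest there, as in the whole Cd4 gate. In the printed stretches Ifit1bl1 has a single motif copy, and Ifit1, Ifit3 and Ifit3b have 2 each. A further window of Ifit1bl1, not printed, also holds 1 copy, and no window of Ifit2 holds any. Whether the counting of near-identical IFIT transcripts differed between libraries was not tested.

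**Figure D5:**
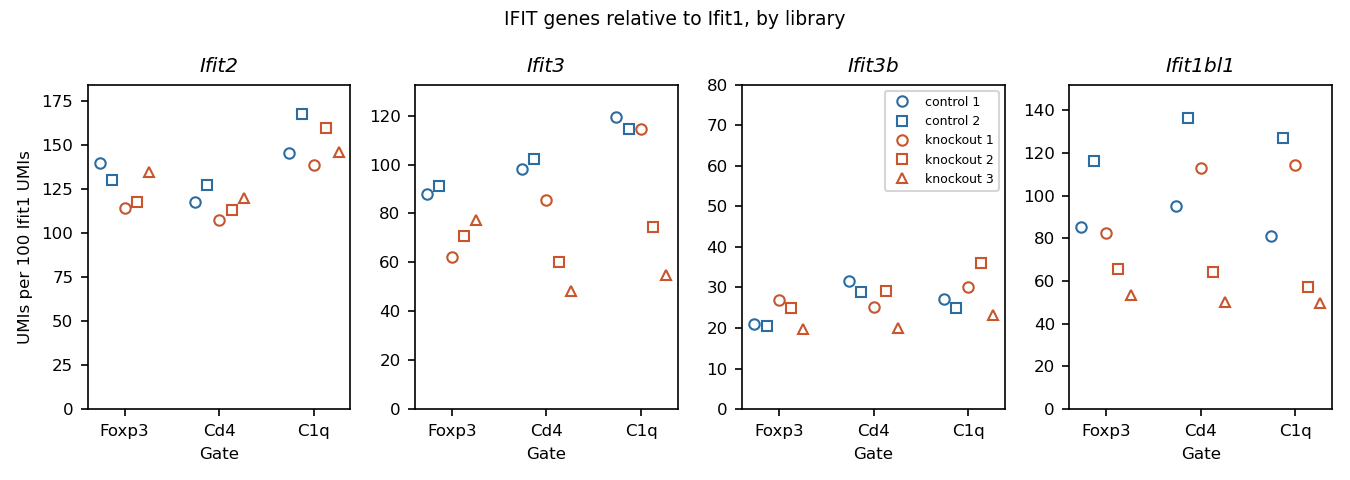
UMIs of Ifit2, Ifit3, Ifit3b and Ifit1bl1 per 100 Ifit1 UMIs (vertical axis) by gate and library, control libraries in blue and knockout libraries in orange. In the Cd4 and C1q gates knockout 2 and 3 have the lowest Ifit3 and Ifit1bl1 values, while Ifit2 varies little.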

How the data were processed

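For each of 5 libraries the authors deposited a matrix of raw counts (UMIs), genes by cells. The submitters' processing notes name Cell Ranger 8.0, mm10 and Seurat 5.1.0. The matrices still held cells with few genes. Cells with fewer than 500 genes or 10% or more mitochondrial UMIs were left out, no doublet caller was run, and counts were summed per library and gate. Sums were tested with edgeR 4.0.16 (quasi-likelihood, TMM, filterByExpr) over all genes, with p-values adjusted by Benjamini-Hochberg and called under 0.05. Gate, core-high and interaction fits had the library as a term. Replicate numbers are not paired by the labels. Scripts were tested on simulated data. Of 50 genes changed 1.5-fold between knockout and control, 15 were recovered in the Foxp3 gate, 5 in the Cd4 gate and 6 in the C1q gate. For 50 genes changed 2-fold these numbers were 37, 25 and 33. False calls were 20 of 159, 14 of 118 and 14 of 143 in these gates. Other software was R 4.3.3 with DESeq2 1.42.0 and limma 3.58.1, and Python 3.11.15 with pandas 2.3.3, scipy 1.17.1, numpy 2.4.6 and matplotlib 3.10.9. Positions are from GENCODE M21 and promoter windows from RefSeq.

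Members, gene lists and tests were chosen with earlier results of these data known. Named with values in every library are the 10 members with the highest mean in the Cd4 gate, up to 10 that passed in a comparison by smallest p, up to 6 per knockout contrast by smallest p among those without overlap, the 5 IFIT genes, Irf7, Irf9 and Stat2. Pathway genes are named by smallest p, up to 6 per list, and some results are not reported here. Mx1, the IFIT ratios and other single examples were named after their values were seen. Alternatives were another count model (DESeq2), RLE scaling, testing without a filter on low counts, lenient (200 genes, 20%) and strict (1000 genes, 5%) cell filters, gates without shared cells, thinning, removal of the 5% of cells with the most UMIs, a replicate block and each library left out. Intervals cover counting error only.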

Additional observations from a re-analysis of the deposited data

How the results depend on the processing

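In the knockout against the control libraries, genes called by edgeR rose from 0 to 51, 57 and 21 with DESeq2 (Foxp3, Cd4 and C1q gate) and to 452, 191 and 145 with no filter on low counts. Thinning gave 3 in the Foxp3 gate and 2 in the Cd4 gate. Leaving out a library gave 0 to 33 in the Foxp3 gate (33 without control 2, 8 without knockout 1 and 1 without control 1) and 0 to 2 in the C1q gate. Members called stayed at 0 in these settings except 1 in the Foxp3 gate with no filter on low counts. With a library left out, the median over the members ran from -0.00832 (without knockout 2) to 0.146 in the Foxp3 gate, from -0.120 to 0.00344 (without control 1) in the Cd4 gate, and from -0.126 to 0.0244 in the C1q gate, where it turned to 0.00444 without control 1 and 0.0244 without knockout 3. Oas3 turned to -0.19 in the Foxp3 gate with thinning, and Xaf1 to 0.02799 in the C1q gate with exclusive gates. The cause was not tested for any of these.

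Replicate numbers 1 and 2 occur in both groups but the labels do not pair them. With the replicate block, 0, 1 and 0 genes were called in the Foxp3, Cd4 and C1q gates, no member was, and the C1q-gate median turned to 0.0228.

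For the difference of knockout effects, 7 called genes became 21 with DESeq2, 297 with no filter on low counts, 11 with lenient cells, 3 with exclusive gates and 2 without the top 5% of cells, and 2 to 39 when a library was left out (39 without control 2, 32 without knockout 1). Members called were 3 with no filter on low counts and 0 to 1 with a library left out. Oas3 turned to -0.12 with thinning.

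Between gates, thinning gave 1405 genes for Foxp3 against Cd4, 2626 for C1q against Cd4 and 1015 for core-high cells, and exclusive gates gave 2715 for C1q against Cd4. With a library left out, members called between the Foxp3 and Cd4 gates ran from 7 to 14, and all genes called ran from 1936 to 2775. Rsad2 turned to -0.12 with exclusive gates, -0.47 with thinning and -0.00363 without the top 5% of cells, and the C1q-gate median to -0.00608 with no filter on low counts.

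Mean core-high shares in the Foxp3, Cd4 and C1q gates were 10.0%, 9.41% and 14.4% for 2 or more core genes, 2.26%, 2.37% and 2.01% for 5 or more, 2.47%, 3.10% and 3.204% at 1000 UMIs, 9.53%, 9.14% and 13.9% at 4000 UMIs, and 21.1%, 15.6% and 35.7% without thinning. The share thus depends on depth and on the number of genes asked for. Of all other values and settings run, 1413 kept their direction and their side of the threshold or moved by less than the limit, and 80 lost the threshold, all of them single members between gates.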
